A study of Homo sapiens with 46 samples.

Results

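In all, 6 libraries of chromatin-bound RNA were compared, 3 from endoderm and 3 from the human pluripotent stem cells (hPSC) it was made from, out of 46 libraries in the series. Members were chosen by label alone: chromatin fraction, and cell type endoderm or hPSC. The hPSC were the H1 line, an established embryonic stem cell line, kept in mTeSR1 medium on Matrigel. The endoderm was the same line grown in RPMI medium with 0.5% FBS, activin A at 100 ng/ml and WNT3A, and collected after 5 days; the labelled unit of the WNT3A dose is unclear, so that dose is not given. Cells of both groups were lysed in buffers holding α-amanitin at 25 µM, which blocks RNA polymerase II, and the chromatin fraction was the pellet left after the nuclei had been lysed in an NP-40 and urea buffer. The whole series covers H1 cells and the 3 germ layers derived from them, each split into cytoplasm, nucleus, nucleoplasm and chromatin. The groups rest on 1 cell line, and the labels do not say that the replicates were separate cultures, so the p-values measure the spread between these libraries, which may be technical. Libraries held 12316044, 7899619 and 11751281 counts for endoderm replicates 1 to 3, and 15798639, 13753419 and 12830248 for hPSC.

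Definitive endoderm is the germ layer that forms the lining of the gut and the liver, pancreas and lung. It arises in the embryo when epiblast cells move through the primitive streak under Nodal (mimicked in culture by activin A) and WNT signals, and switch from the pluripotency factors to regulators of the SOX17, GATA and FOXA families. RNA on chromatin is in part RNA still being made or just finished, together with RNAs that stay at the DNA, so it stands nearer to transcription than RNA of the cytoplasm does. It is not pure nascent RNA, since a chromatin pellet also carries mature mRNA and RNA of organelles.

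Across 11468 genes tested with edgeR's quasi-likelihood test, 7300 (63.7%) passed a Benjamini-Hochberg adjusted p of 0.05, 3646 (31.8%) higher in endoderm and 3654 (31.9%) lower. In 8031 genes (70%) the 3 endoderm libraries did not overlap the 3 hPSC libraries in CPM, the count scaled to the library total (27.6% with endoderm higher and 42.4% with it lower), and 4393 (38.3%) were both called and changed at least 2-fold. Counts of list members below are read against those shares, since a list with about that share of its members called each way does not stand out from the whole table. The log2 changes use TMM factors, and plain library totals moved the median of all genes by -0.18, so CPM values and log2 changes of small size can differ in sign. One library stood apart. The log2 CPM of hPSC replicate 3 correlated at 0.954 and 0.958 with those of hPSC replicates 1 and 2, which correlated at 0.995 with each other (across 11468 genes, which are not independent replicates). Its deviation ran with the GC content of the transcripts, from a median of -1.001 in the decile of genes with the lowest GC content to 0.31 in the highest decile. Without it, 8357 of 11516 genes (72.6%) were called (35.4% higher and 37.2% lower), 7193 of them in the same direction as in the fit of all 6 libraries.

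**Figure D1:**
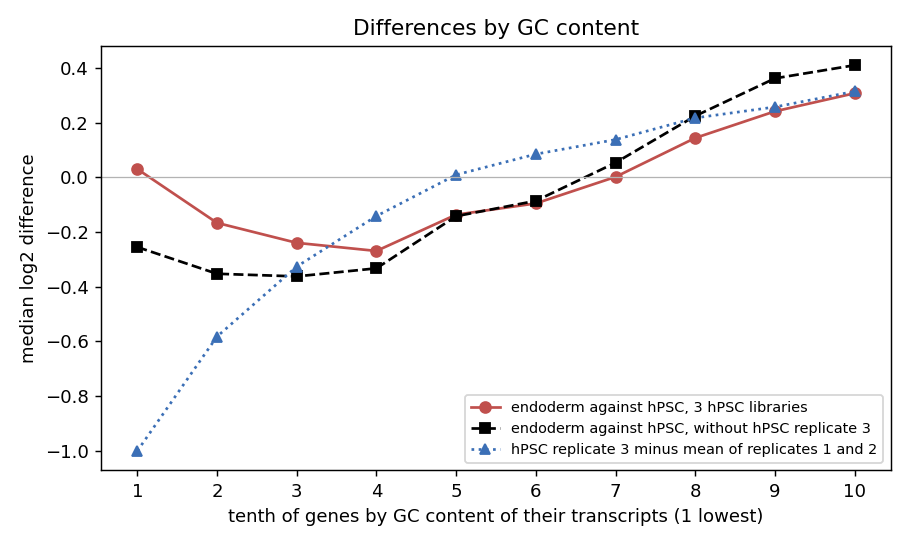
Median log2 difference (vertical axis) in deciles of genes ordered by the GC content of their GENCODE 29 transcripts (horizontal axis), for endoderm against hPSC with all 6 libraries (circles), without hPSC replicate 3 (squares), and for hPSC replicate 3 minus the mean of hPSC replicates 1 and 2 (triangles). The endoderm change ran from -0.27 in the fourth decile to 0.31 in the decile with the highest GC content, and without replicate 3 it ran from -0.36 in the third decile to 0.41 in the highest.

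The endoderm change on chromatin varied with GC content with and without hPSC replicate 3. Its part in the changes of single genes was not tested.

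The endoderm and hPSC tables list different transcripts, each cell type having a transcript assembly of its own. They shared 11760 genes, while 1884 genes stood in the endoderm table alone and 3355 in the hPSC table alone. Assembly and cell type cannot be told apart, and genes with more transcripts in the endoderm table were more often called higher (47.4% of 2957) than genes with the same number in both (26.5% of 5301). Changes over the 12007 transcripts listed in both tables are therefore given beside genes where the 2 values part; of the 8752 genes tested in that way 54.4% were called, 26.6% higher and 27.8% lower. A number of the genes named had no such test, among them AHNAK, PRDM1, RHOBTB3, TCF7, PDGFRA, KDM6B, MIAT, SLC16A3, CDK6, MKI67, ACVR2B, SMAD4, BMP6, TTN, U2AF1, HES1 and DOT1L.

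The largest rises in CPM were those of FN1, COL18A1, COL4A1, AHNAK and LAMA1, of which all but AHNAK encode proteins of the extracellular matrix. FN1, which encodes fibronectin (chr2:215360440-215436172, minus strand, hg38), stood at 30856, 37275 and 26338 CPM in endoderm replicates 1 to 3 and at 221, 203 and 238 CPM in hPSC. The groups lay far apart, and FN1 alone held 3.15% of the endoderm chromatin counts; its log2 change was 7.41 ± 0.21 (SE, adjusted p = 6.16e-07). COL18A1, a basement membrane collagen, gave 9248, 7200 and 7435 CPM against 943, 934 and 1327 (log2 change 3.15 ± 0.19, adjusted p = 7.68e-06). COL4A1 and COL4A2 encode the paired chains of type IV collagen and lie head to head on chromosome 13. COL4A1 rose from 186 ± 6.95 CPM (SD, n = 3) to 3214 ± 317 (edgeR log2 change 4.36 ± 0.14). COL4A2 rose from 261 ± 36.1 to 2568 ± 242 CPM (SD, n = 3, log2 change 3.55 ± 0.15), so the pair moved together and no endoderm library overlapped an hPSC library. The laminin genes LAMA1 and LAMB1, which build the same membrane, rose by log2 changes of 3.90 ± 0.17 and 4.02 ± 0.17, and LAMC1 by 1.22 ± 0.14. AHNAK, a very large membrane-associated protein, rose from 49.4 ± 12.4 to 2866 ± 487 CPM (SD, n = 3, log2 change 6.11 ± 0.25).

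Apart from COL18A1 and AHNAK, which stand in none of the lists, these genes belong to a list of epithelial and mesenchymal genes. Of its 26 tested members 17 rose and 3 fell, with a median log2 change of 1.29 against -0.01 over all genes tested. The fibronectin receptor subunit ITGA5 rose by 2.67 ± 0.12 (log2), while ITGB1, its partner, had a log2 change of 0.52 ± 0.26 that was not called (adjusted p = 0.107), and 0.68 over shared transcripts (adjusted p = 0.0441). Among cadherins, the N-cadherin gene CDH2 rose from 42.7, 36.8 and 29.5 CPM in hPSC to 401, 392 and 337 in endoderm (log2 change 3.62 ± 0.18). E-cadherin, CDH1, had a log2 change of 0.03 ± 0.12 (adjusted p = 0.82), at 514 ± 40.5 CPM in endoderm and 596 ± 40.1 in hPSC (SD, n = 3). Keratin genes of simple epithelia differed among themselves: KRT19 rose by 2.57 ± 0.14 and KRT8 by 1.71 ± 0.13 on the log2 scale, and KRT18 had 0.24 ± 0.10 (adjusted p = 0.0756), and 0.38 over shared transcripts (adjusted p = 0.0171). EPCAM, an epithelial surface protein also used to mark hPSC, rose by 1.54 ± 0.33. The claudins CLDN6, with -0.54 ± 0.11, and CLDN7, with -0.38 ± 0.11, and the splicing factor ESRP1, with -0.35 ± 0.12, were the members that fell, and over shared transcripts the fallen members numbered 1 of 26. There CLDN7 had -0.25 (adjusted p = 0.131) and ESRP1 0.20 (adjusted p = 0.18). In cytoplasm 22 of the 26 members were higher and 0 lower, against 23.4% and 22.4% of all genes. CLDN6 rose in cytoplasm by 0.59 on the log2 scale (edgeR adjusted p = 0.002). ZEB1, ZEB2 and TWIST1, regulators of the mesenchymal state, were in neither table.

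**Figure D2:**
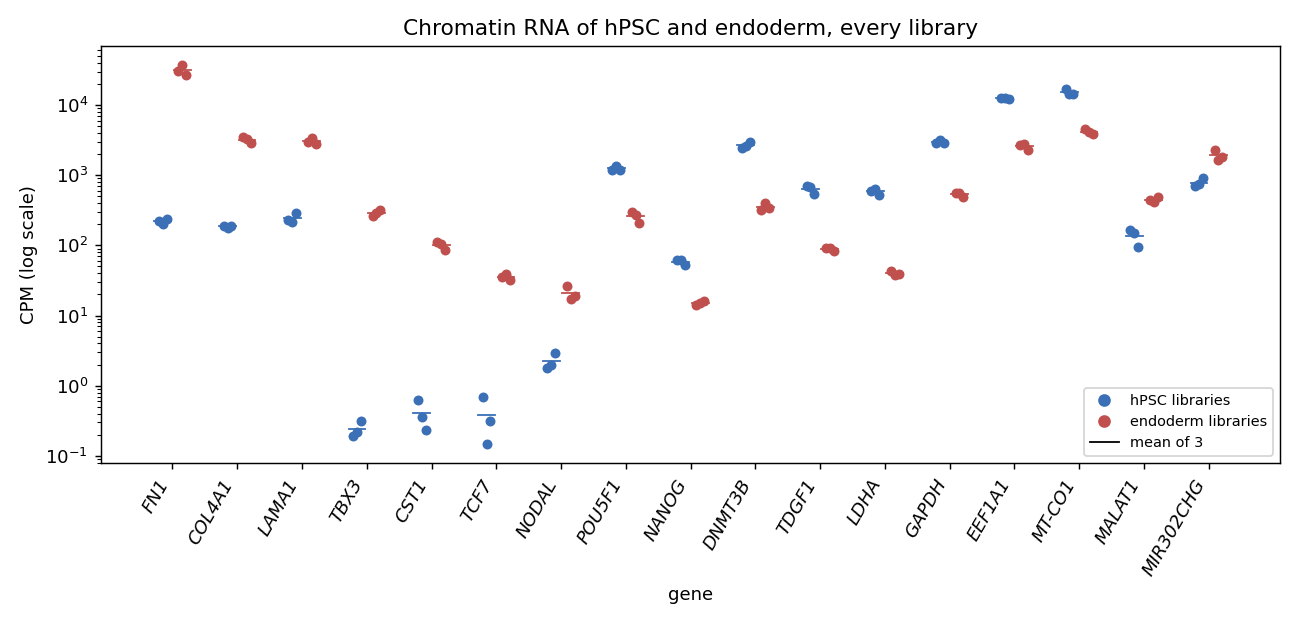
CPM on a log axis (vertical) for 17 genes (horizontal) in each of the 3 hPSC chromatin libraries (blue points) and the 3 endoderm chromatin libraries (red points), with a line at the mean of each group. For none of these genes do the groups overlap, and FN1 reaches the highest endoderm level, between 26338 and 37275 CPM.

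Transcription factors of endoderm were mostly found in the endoderm table alone, so they have a level and no fold change. Of 19 in the list, 10 stood there only, 5 were tested and 4 (FOXA1, FOXQ1, SOX7 and FOXC1) were in neither table. In endoderm replicates 1 to 3, GATA4 gave 148, 111 and 145 CPM, HNF4A 131, 122 and 142, and SOX17 130, 90.0 and 103. GATA6 stood at 55.9 ± 11.6, EOMES at 29.5 ± 3.49 and FOXA2 at 15.6 ± 1.88 CPM (SD, n = 3). GSC (3.59 ± 1.11 CPM) and HHEX (3.44 ± 0.56 CPM), early organizer and foregut factors, were low. A gene that was not listed in hPSC is not a gene counted at 0 there: BRD7 and QSER1, which most cells express, are in the hPSC table alone in the same way.

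Among the 5 tested factors, 3 rose. LHX1, a factor of the node and anterior endoderm, was at 7.15, 10.1 and 6.72 CPM in endoderm and had 1, 0 and 1 reads in hPSC, a ratio of 164 with a 95% counting interval of 44.9 to 1360. Its fitted log2 change was 7.35 over all transcripts and 5.67 over shared ones. PRDM1, the repressor Blimp-1, was at 28.5, 26.5 and 28.3 CPM against 0.51, 1.53 and 0.31 (log2 change 5.38 ± 0.44). PRDM1 had 4 transcripts in the endoderm table and 1 in the hPSC table, and no test over shared ones. MIXL1, a homeobox factor of the streak, rose from 0.34 ± 0.20 to 3.30 ± 0.92 CPM (SD, n = 3, edgeR log2 change 3.54 ± 0.48). OTX2, a factor of the anterior epiblast, fell from 45.3, 54.5 and 50.6 CPM to 12.91, 13.04 and 12.85, by 1.70 ± 0.14 on the log2 scale. FOXA3 was expressed in both groups, 26.1, 32.8 and 30.2 CPM in hPSC and 28.26, 15.95 and 19.83 in endoderm, which overlap (log2 change -0.22 ± 0.22, adjusted p = 0.40). The summed level of the 15 factors listed for endoderm was 542 to 661 CPM, and of the 5 listed for hPSC 72.3 to 89.0 CPM. The 10 factors found in the endoderm table alone enter only the endoderm sum, so these sums give no fold change.

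Of the surface and secreted markers of endoderm, 12 of 15 tested members rose and 2 fell, and 11 more were in the endoderm table alone. CST1, a secreted cystatin high in definitive endoderm, was at 111, 105 and 86.9 CPM in endoderm and under 1 CPM in each hPSC library (log2 change 8.11 ± 0.28, adjusted p = 9.2e-07). VTN, vitronectin, was at 21.0, 21.6 and 18.4 CPM against 0.00, 0.15 and 0.39 (log2 change 7.09 ± 0.51). FGF17 rose by 5.96 ± 0.41 (4.49 over shared transcripts) and RHOBTB3, a GTPase-like protein, by 4.47 ± 0.20 on the log2 scale. NRP1, a co-receptor of VEGF and semaphorins, rose by 5.05 ± 0.23, but it had 6 transcripts in the endoderm table and 1 in the hPSC table, and over shared transcripts its log2 change was 0.69 (adjusted p = 0.60). APOE rose from 1185 ± 58.6 to 2493 ± 1105 CPM (SD, n = 3, edgeR log2 change 1.32 ± 0.27), the wide spread coming from 3757 CPM in endoderm replicate 1 against 2011 and 1710. FZD5, a WNT receptor, fell by 1.82 ± 0.15, and CLDN6, which rose in cytoplasm, is the other member that fell on chromatin. In the endoderm table alone, APOA1 was at 1946, 1211 and 1116 CPM, CXCR4, the chemokine receptor used to sort endoderm, at 14.5, 13.9 and 11.6, and CER1, a Nodal and BMP antagonist, at 7.63, 4.30 and 6.30. AFP and TTR, products of later visceral or hepatic endoderm, were in neither table.

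Primitive streak genes were still measurable. All 5 tested members rose: WNT3, the ligand that starts the streak, from 2.28, 1.24 and 3.04 CPM to 21.8, 22.3 and 23.9, NODAL from 1.77, 1.96 and 2.96 to 25.98, 16.96 and 18.98, and FGF4, LHX1 and MIXL1 beside them. TBXT (brachyury), in the endoderm table alone, was at 2.19, 4.30 and 3.32 CPM. The medians of the list (3.54) and of the endoderm factors rest on 5 genes each, with LHX1 and MIXL1 in both.

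The pluripotency list moved the other way, with 20 of 24 tested members lower and 1 higher, a median log2 change of -1.68, and 10 further members in the hPSC table alone. POU5F1 (OCT4), the core factor of the state, was at 1182, 1365 and 1190 CPM in hPSC and 302, 272 and 211 in endoderm, a fall of 2.00 ± 0.15 on the log2 scale (adjusted p = 2.31e-05). NANOG fell from 62.1, 61.5 and 52.3 CPM to 14.3, 15.3 and 15.9, with a log2 change of -1.70 ± 0.15 over all transcripts and -0.85 over shared ones. DNMT3B, the de novo DNA methyltransferase of the epiblast, fell from 2664 ± 274 to 352 ± 40.5 CPM (SD, n = 3), and TDGF1, the Nodal co-receptor Cripto, from 637 ± 83.9 to 89.1 ± 4.23. None of these 4 genes overlapped between the groups, and all 4 remained measurable in endoderm.

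TERF1, a telomere protein gene, had the steepest called fall of the list, by 4.08 ± 0.40 on the log2 scale, with 2641, 2197 and 897 CPM in hPSC, of which replicate 3 is the low one, and 109, 97.7 and 81.0 in endoderm. Without that library the TERF1 change was -4.42. PRDM14 had a log2 change of -2.95 ± 0.13, and -4.28 over shared transcripts. USP44, a deubiquitinase, fell by 3.55 ± 0.33 over all transcripts and had a log2 change of 0.53 (adjusted p = 0.18) over the transcripts of both tables, while CD24, a surface glycoprotein, fell by 2.41 ± 0.19 over all transcripts and rose by 2.61 over the shared ones (adjusted p = 0.000279), so its direction rests on the assembly. Over shared transcripts the list had 16 of 22 members lower and 2 higher. PODXL, the podocalyxin that carries the TRA-1 antigens, was the 1 member that rose, from 3171, 2974 and 3216 CPM to 4658, 5421 and 4473 (log2 change 0.89 ± 0.13). SOX2, in the hPSC table alone, was at 299, 301 and 212 CPM, and FGF2 at 306, 288 and 136 CPM. GDF3 and ZSCAN10 had log2 changes of -0.34 and -0.25 that were not called, but over shared transcripts ZSCAN10 had -1.49 (adjusted p = 0.000216).

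Within the Nodal and activin pathway, 9 of 18 tested members rose and 3 fell, and without hPSC replicate 3 the counts were 10 and 3. The steepest rises were those of 3 inhibitors and of the ligand NODAL (log2 change 3.46 ± 0.27). SMAD7, the inhibitory SMAD, was at 107, 90.3 and 111 CPM in endoderm and 8.04, 9.82 and 12.2 in hPSC (log2 change 3.61 ± 0.19, adjusted p = 3.72e-06). BAMBI, a receptor without a kinase, rose by 3.53 ± 0.14, and FST, follistatin, which binds activin, from 26.5, 24.2 and 21.0 CPM to 240, 224 and 227 (log2 change 3.51 ± 0.14). For these 3 inhibitors the groups were far apart. Of the signal transducers, SMAD2 rose by 0.78 ± 0.15 (2.23 over shared transcripts, adjusted p = 0.00496) and SMAD3 by 0.98 ± 0.14, SMAD4 fell by 0.36 ± 0.12, and FOXH1, the partner of SMAD2, had -0.26 ± 0.13 (adjusted p = 0.11). Of the receptors, ACVR1B rose by 0.76 ± 0.14 and ACVR2B fell by 1.03 ± 0.19. With plain library totals the list had 8 higher and 5 lower, so the weaker falls depend on the scaling.

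Of the WNT list, 5 of 18 tested members rose and 7 fell, and 8 were in the endoderm table alone. TCF7, a nuclear effector of β-catenin, was at 34.99, 39.24 and 32.51 CPM in endoderm and at most 0.70 CPM in hPSC (log2 change 6.69 ± 0.38). It had 7 transcripts in the endoderm table and 1 in the hPSC table, and no test over shared ones. RNF43, which removes Frizzled receptors, rose by 3.82 ± 0.25, but over shared transcripts by 1.53 (adjusted p = 0.44, not called). Secreted WNT binders parted: FRZB rose from 6.27, 6.11 and 5.46 CPM to 46.6, 48.6 and 44.8, while SFRP1 fell from 966, 942 and 961 to 108, 113 and 110, by 2.87 ± 0.11 on the log2 scale, and SFRP2 fell by 2.76 ± 0.14. AXIN2, a commonly used readout of the pathway, had a log2 change of 0.24 ± 0.17 (adjusted p = 0.256, and -0.94 with 0.496 over shared transcripts), at 32.6, 42.4 and 42.0 CPM in endoderm and 33.6, 38.2 and 46.3 in hPSC. LGR5, SP5, NOTUM and NKD1, other WNT targets, were in the endoderm table alone at 22.6, 36.9, 40.3 and 40.1 CPM.

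Markers of other lineages were checked in the same libraries. Of 26 mesoderm markers, 9 were tested, of which 5 rose and 2 fell, 5 were in the endoderm table alone, 1 in the hPSC table alone and 11 in neither. TBX3, a T-box factor also expressed in endoderm (chr12:114670254-114684164, minus strand, hg38), had the steepest called rise in the whole table among genes above 10 CPM, from 0.19, 0.22 and 0.31 CPM to 266, 286 and 318 (log2 change 10.45 ± 0.22, adjusted p = 2.81e-07). The TBX3 levels in hPSC are a few reads per library, so the size of its rise is uncertain and its SE may be too small. MSX2 rose from 0.82, 0.73 and 0.94 CPM to 50.5, 43.0 and 41.4. HAPLN1 rose by 5.44 ± 0.22 and PDGFRA by 3.80 ± 0.23 on the log2 scale. MESP1, HAND2 and TCF21 were among the 11 in neither table, and TBX6 had a log2 change of -0.14 ± 0.35 (adjusted p = 0.75). The 5 in the endoderm table alone have a level there and no fold change, so absence of mesoderm genes cannot be read from this list. The summed level of the 14 mesoderm markers listed for endoderm was 1530 to 1643 CPM, and of the 10 listed for hPSC 1163 to 1442. These sums cover different genes. Of 24 neuroectoderm markers 3 were tested and none was called by edgeR, none had an unadjusted p under 0.05, and none was called by DESeq2; without hPSC replicate 3, 1 was called higher. The summed level of the 7 neuroectoderm markers listed for endoderm was 644 to 690 CPM, and of the 7 listed for hPSC, in part other genes, 656 to 802. Both sums were mostly NES, and SOX1 was in neither table. No trophoblast or amnion marker could be tested; 6 of 16 were in the endoderm table, at a summed 152 to 170 CPM with GATA3 at 93.1 ± 6.28 (SD, n = 3), and 4 in the hPSC table, at 23.9 to 28.7. The trophoblast and amnion markers of the endoderm table and of the hPSC table are different genes, so their sums give no fold change. In bulk samples, fewer cells of a type and less RNA per cell cannot be told apart. The part of other cell types in these changes was not tested.

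**Figure D3:**
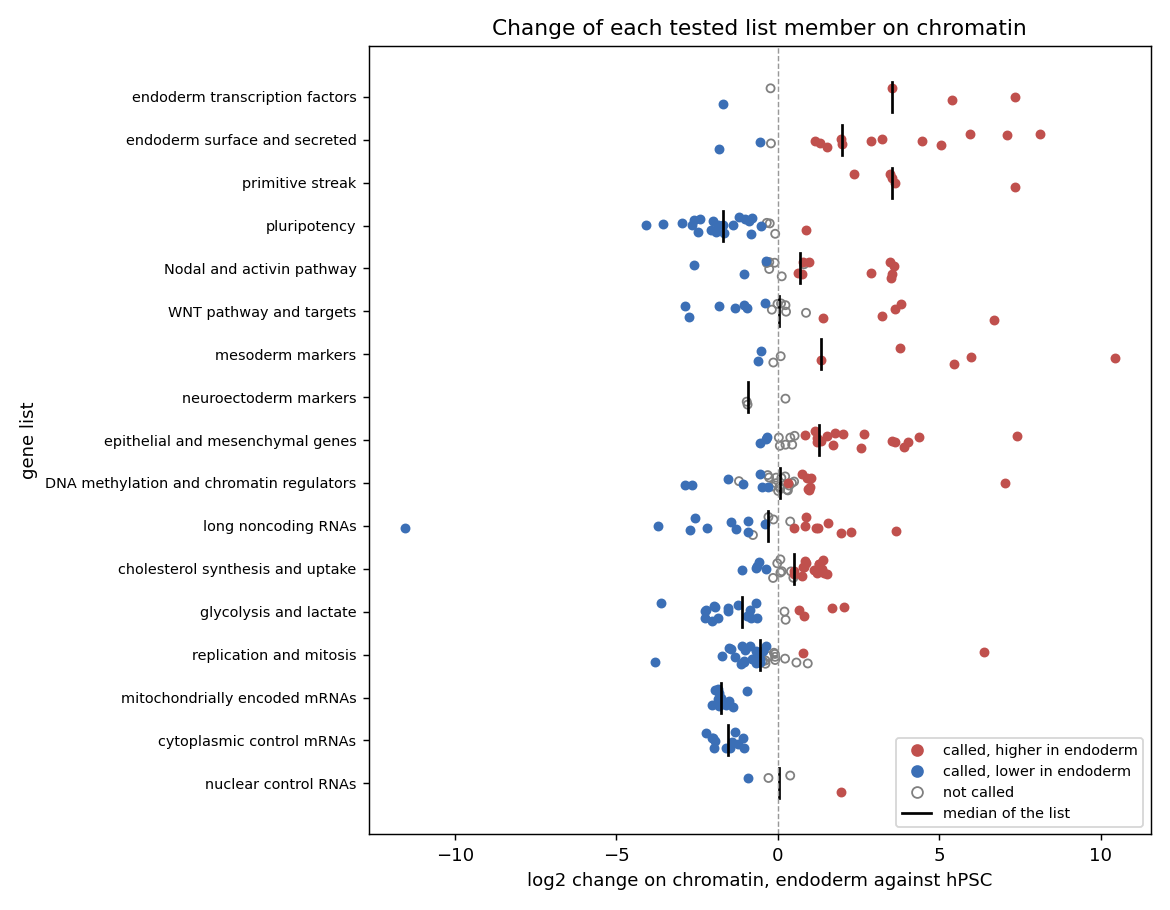
Log2 change on chromatin, endoderm against hPSC (horizontal axis), of each tested member of 17 gene lists (vertical axis), red where called higher, blue where called lower and open where not called, with a bar at the median of each list. All 13 mitochondrially encoded mRNAs and all 12 cytoplasmic control mRNAs lie on the lower side, and the pluripotency list has 20 of 24 there.

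Regulators of DNA methylation and chromatin were near the background, with 8 of 31 higher, 7 lower and a median log2 change of 0.08, or 12 and 8 without hPSC replicate 3. Both de novo methyltransferases fell, DNMT3B by 2.67 ± 0.14 and DNMT3A by 1.06 ± 0.13 on the log2 scale, but over shared transcripts DNMT3A had -0.36 and was not called (adjusted p = 0.0662). DNMT1, the maintenance enzyme, had 0.36 ± 0.14 (adjusted p = 0.0585), and 0.69 over shared transcripts (adjusted p = 0.0267). KDM6B, an H3K27 demethylase, was at 86.1, 92.2 and 85.8 CPM in endoderm and 0.38, 1.38 and 0.62 in hPSC (log2 change 7.04 ± 0.34), with 5 transcripts in the endoderm table and 1 in the hPSC table. HELLS, a remodeller needed for DNA methylation, fell by 2.86 ± 0.16 over all transcripts and rose by 3.25 over those of both tables (adjusted p = 0.0249), and TRIM28, a corepressor, fell by 0.30 and rose by 0.70 there, so the directions of both rest on the assembly. PHC1, a Polycomb subunit, had a log2 change of -1.53 ± 0.19, and -0.86 over shared transcripts.

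The metabolic lists parted. Of 27 genes of cholesterol synthesis and uptake, all tested, 15 rose and 5 fell, with a median log2 change of 0.51. HMGCS1, which makes HMG-CoA, was at 156, 161 and 145 CPM in endoderm and 78.7, 81.8 and 48.4 in hPSC (log2 change 1.39 ± 0.21). MVD, an enzyme of the mevalonate pathway, rose by 1.53 ± 0.14, and LSS, the cyclase that makes lanosterol, by 1.44 ± 0.14 on the log2 scale. PMVK fell by 1.11 ± 0.24, CYP51A1 by 0.57 ± 0.17 (not called over shared transcripts, adjusted p = 0.0562) and NSDHL by 0.65 ± 0.17. The master regulators moved apart, SREBF2 rising by 0.51 ± 0.11 and SREBF1 falling by 0.68 ± 0.14, but over shared transcripts SREBF1 rose by 0.74 (adjusted p = 0.02). Over shared transcripts 17 members of the list were higher and 3 lower.

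Sterol genes commonly carry an NF-Y box, CCAAT, near their start site. The upstream stretches of 3 members that rose are shown for that box, 5′ to 3′ on the gene's strand, from RefSeq (GRCh38.p14) and outside any GENCODE 29 exon, with CCAAT or its complement ATTGG in capitals. HMGCS1 is chr5:43313513-43313662, LSS chr21:46228825-46229024 and MVD chr16:88663162-88663297, all on the minus strand.
HMGCS1: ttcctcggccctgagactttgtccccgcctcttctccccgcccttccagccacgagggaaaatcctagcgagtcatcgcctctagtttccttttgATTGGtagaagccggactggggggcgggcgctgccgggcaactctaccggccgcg
LSS: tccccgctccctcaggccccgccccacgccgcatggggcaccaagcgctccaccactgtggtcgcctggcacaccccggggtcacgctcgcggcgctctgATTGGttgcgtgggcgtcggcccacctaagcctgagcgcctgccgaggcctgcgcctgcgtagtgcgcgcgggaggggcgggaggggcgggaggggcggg
MVD: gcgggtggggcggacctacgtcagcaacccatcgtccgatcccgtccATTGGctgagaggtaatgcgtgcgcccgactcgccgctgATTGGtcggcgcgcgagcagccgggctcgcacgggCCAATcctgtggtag

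RefSeq promoters of 300 bases (250 before to 50 after the start) were found for 20 of the 27 members, and 16 of them held CCAAT on either strand, against 39.7% of 27305 genes. Of the matched members, all 12 that rose held it, as did 4 of the 8 others. The 27305 genes include genes that were not tested here. A match describes these letters and is not a measured site, and its part in the rises was not tested.

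Glycolysis and lactate genes were mostly lower, 16 of 22 against 4 higher, with a median log2 change of -1.09. LDHA, lactate dehydrogenase (chr11:18394388-18408425, plus strand, hg38), had the steepest fall, from 600, 637 and 530 CPM to 43.0, 38.2 and 38.9 (it fell by 3.63 ± 0.13 on the log2 scale, adjusted p = 1.19e-06). GAPDH fell by 2.22 ± 0.12, ALDOA by 2.26 ± 0.13 and PGAM1 by 2.24 ± 0.12. The glucose transporters SLC2A1 and SLC2A3 went opposite ways: SLC2A1 (GLUT1) fell by 1.23 ± 0.11, while SLC2A3 (GLUT3) rose from 903, 781 and 832 CPM to 2830, 2882 and 3155 (log2 change 2.07 ± 0.13). SLC16A3, a lactate exporter, rose by 1.67 ± 0.20.

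Replication and mitosis genes were lower in 20 of 33 and higher in 2, with a median of -0.54, or 24 and 3 without hPSC replicate 3. CDK6 fell by 3.79 ± 0.35, CDC6, a licensing factor, by 1.72 ± 0.14 and RRM2 by 1.51 ± 0.12 on the log2 scale. The cell cycle inhibitor CDKN1C (p57) rose from 1.84, 0.95 and 0.78 CPM to 101, 76.3 and 79.5 (log2 change 6.37 ± 0.31). MKI67 was the other that rose, by 0.80 ± 0.23, and it was low in hPSC replicate 3, at 141 CPM against 256 and 222. In cytoplasm 13 of the 33 were lower and 2 higher, with a median of -0.25. RRM2 had a cytoplasmic log2 change of -0.11 (edgeR adjusted p = 0.443) and CDC6 one of -0.55. For 11 of the 33 the change was lower on chromatin than in cytoplasm (23.7% of all genes), and for 0 it was higher.

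RNAs that belong outside the nucleus were lower on endoderm chromatin as whole lists. All 13 mitochondrially encoded mRNAs fell, with a median log2 change of -1.77, as did all 12 cytoplasmic control mRNAs, with a median of -1.54. EEF1A1, the translation elongation factor, was at 12577, 12719 and 12319 CPM in hPSC and 2681, 2782 and 2320 in endoderm (a fall of 2.02 ± 0.13, adjusted p = 9.93e-06). MT-CO1, a subunit of cytochrome oxidase, was at 16739, 14221 and 14516 CPM against 4610, 4085 and 3845 (a fall of 1.61 ± 0.14). Mitochondrial RNA in all made up 4.51% to 5.80% of hPSC chromatin counts and 1.32% to 1.54% of those of endoderm. In the cytoplasm libraries it was 0.399% to 0.615% in hPSC and 0.423% to 0.460% in endoderm, ranges that overlap. All other lists stand beside this shift, and its part in their changes was not tested.

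The test of the difference between fractions asks for which genes the endoderm change on chromatin was not the same as in cytoplasm; it used 12 libraries, and the 2 changes are measured in separate fractions of the same cell types. Of 11599 genes, 4304 (37.1%) differed, 1559 (13.4%) with a higher change on chromatin and 2745 (23.7%) with a lower one, with a median difference of -0.21. DESeq2 called 4468 genes, of which 2199 were higher, with a median difference of -0.05, and edgeR with plain library totals called 4730, of which 1280 were higher, so the balance of directions depends on the method. Without hPSC chromatin replicate 3, 5648 genes were called. Leaving out hPSC cytoplasm replicate 1, which held 8329295 counts against 14962624 and 15073269 in replicates 2 and 3, gave 4492.

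Of the cytoplasmic control mRNAs, 11 of 12 had a lower change on chromatin than in cytoplasm, and of the mitochondrial mRNAs 9 of 13. EEF1A1 stood at 20948 ± 718 CPM in endoderm cytoplasm and 21256 ± 1586 in hPSC cytoplasm (SD, n = 3, log2 change -0.19, adjusted p = 0.27), and the difference between fractions was -1.98 ± 0.19. Glycolysis genes had 16 of 22 lower, LDHA with -2.42 ± 0.24, and pluripotency genes 15 of 24. LIN28A, the RNA-binding repressor of let-7, fell on chromatin from 1903 ± 129 to 423 ± 26.5 CPM (SD, n = 3). In cytoplasm it was at 1098, 2290 and 2368 CPM in hPSC, replicate 1 being low, and at 2319 ± 65.9 in endoderm (SD, n = 3, edgeR log2 change 0.11, adjusted p = 0.71). The LIN28A change was thus 2.17 ± 0.31 lower on chromatin. SFRP1 gave the same pattern, with a fall of 2.87 ± 0.11 on chromatin and a cytoplasmic log2 change of -0.36 (adjusted p = 0.06). CCND1, cyclin D1, fell by 1.06 ± 0.11 on chromatin and rose by 0.44 in cytoplasm (edgeR adjusted p = 0.023).

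**Figure D4:**
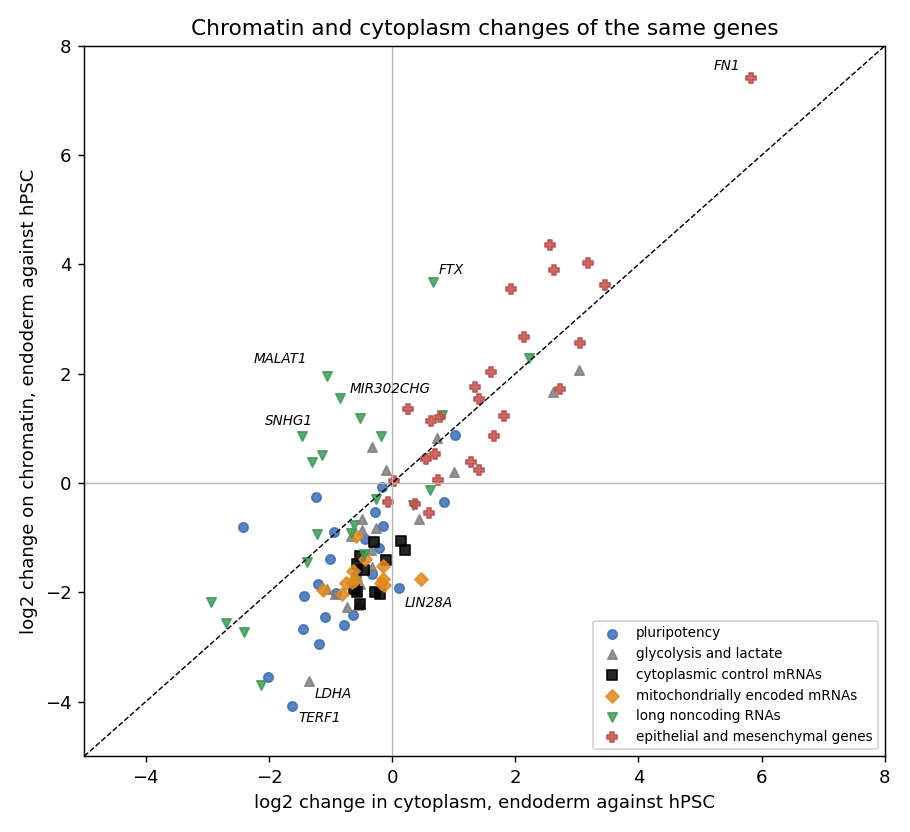
Log2 change of endoderm against hPSC in cytoplasm (horizontal axis) and on chromatin (vertical axis) for the tested members of 6 gene lists, each with its own symbol; the dashed line marks equal change, and MIAT lies outside the axes. Cytoplasmic control and mitochondrial mRNAs sit below the line, and MALAT1, FTX, SNHG1 and MIR302CHG above it.

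Long noncoding RNAs showed the opposite tendency in part. On chromatin 9 of 23 tested members rose and 10 fell, and without hPSC replicate 3 the counts were 9 and 12. In the test of the difference 7 of 23 had a higher change on chromatin and 4 a lower one, against 13.4% and 23.7% of all genes. MALAT1, a nuclear speckle RNA, was at 445, 413 and 483 CPM on endoderm chromatin and 167, 149 and 94.9 on hPSC chromatin (log2 change 1.95 ± 0.22, adjusted p = 0.00015). In cytoplasm it fell from 232 ± 22.4 to 126 ± 39.9 CPM (SD, n = 3, edgeR log2 change -1.05), and the difference was 2.87 ± 0.32. FTX, a noncoding gene of the X-inactivation centre, rose by 3.68 ± 0.16 on chromatin (1.71 over shared transcripts) and by 0.66 in cytoplasm. The snoRNA hosts SNHG1 and GAS5 rose on chromatin by 0.86 ± 0.16 and 0.51 ± 0.12 and fell in cytoplasm by 1.46 and 1.14 on the log2 scale.

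MIAT had the steepest called fall of the list: 599, 596 and 909 CPM in hPSC and 0.41, 0.00 and 0.09 in endoderm, with 5 transcripts in the hPSC table and 1 in the endoderm table and no test over shared ones. ESRG, an RNA expressed from an endogenous retroviral element in hPSC, fell from 1951, 2022 and 2423 CPM to 128, 163 and 123, with a log2 change of -3.70 ± 0.17. Over shared transcripts the fitted value was -14.35, so its size rests on the assembly. SNHG14 fell by 0.91 ± 0.21 over all transcripts and rose by 1.12 over shared ones (adjusted p = 0.04).

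MIR302CHG, the host transcript of the cluster of miR-302 and miR-367 genes that marks pluripotent cells, was at 696, 739 and 911 CPM on hPSC chromatin and 2277, 1663 and 1835 on endoderm chromatin (log2 change 1.55 ± 0.16, adjusted p = 9.75e-05), with no overlap. Over shared transcripts its log2 change was 0.70. In cytoplasm it was at 295 ± 198 CPM in hPSC and 185 ± 17.3 in endoderm (SD, n = 3, edgeR log2 change -0.85, adjusted p = 0.05). The hPSC cytoplasm libraries spread widely and the groups overlapped there, so a fall in cytoplasm is not clear. The difference between fractions, which uses these libraries, was 2.25 ± 0.47 (edgeR adjusted p = 0.0022). The mature products of this host, from RefSeq (GRCh38.p14, chromosome 4, minus strand), are printed because the 4 miR-302 members share 1 seed, bases 2 to 8 in capitals, and the last member has another; the mature miRNAs themselves were not measured.
hsa-miR-302a-3p: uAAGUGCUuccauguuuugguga
hsa-miR-302b-3p: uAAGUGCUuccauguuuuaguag
hsa-miR-302c-3p: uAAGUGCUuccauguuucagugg
hsa-miR-302d-3p: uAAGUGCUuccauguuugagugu
hsa-miR-367-3p: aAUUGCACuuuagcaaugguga

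Set against the other germ layers on chromatin, in a fit of 4 cell types over 10669 genes, endoderm differed from ectoderm in 6329 genes (59.3%) and from mesoderm in 4320 (40.5%). These comparisons share the endoderm libraries with the one against hPSC. Members of the epithelial and mesenchymal list were higher in endoderm than in ectoderm for 22 of 26 (28.8% of all genes were higher) and than in mesoderm for 9 of 26 (18.8%). FN1 was 8.63 above ectoderm and 1.54 above mesoderm on the log2 scale, COL4A1 4.42 and 3.83, and LAMA1 3.27 and 3.81. KIT, the stem cell factor receptor found on definitive endoderm, rose by 1.16 ± 0.12 against hPSC and was 3.35 above ectoderm and 2.37 above mesoderm. FRZB was 4.85 above mesoderm and 0.76 below ectoderm, while RHOBTB3 was 3.01 above ectoderm and 0.60 below mesoderm. Of 18 pluripotency members in all 4 tables, 13 were higher than in ectoderm and 4 lower, and 4 were higher than in mesoderm and 3 lower, the last near the share of all genes. POU5F1 was 7.25 above ectoderm and had a log2 difference of 0.20 from mesoderm (adjusted p = 0.47). Of the 13 mitochondrially encoded mRNAs, 0 were called against ectoderm or mesoderm. Mitochondrial RNA was 2.696%, 1.891% and 2.536% of ectoderm chromatin counts and 1.116%, 0.769% and 5.532% of those of mesoderm. Of the 12 cytoplasmic control mRNAs, 8 were lower than in ectoderm (30.5% of all genes) and 6 lower than in mesoderm (21.7%).

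Of the 12 steepest rises and 12 steepest falls among genes above 10 CPM, most rested on groups with hardly any reads, and several on unequal assemblies. BMP6, a BMP ligand, was at 49.8, 50.4 and 41.6 CPM in endoderm with 2 reads in hPSC in all, a ratio of 994 (95% counting interval 275 to 8220). It had 1 transcript in each table but no test over shared ones. TTN, the giant muscle protein titin, rose from 0.51 ± 0.32 to 217 ± 45.3 CPM (SD, n = 3), with 5 transcripts in the endoderm table and 1 in the hPSC table. GJB1, a gap junction gene, had 2 reads in hPSC and a ratio of 279 (95% counting interval 76.8 to 2310), and TNFRSF19 rose by 8.13 ± 0.19 (7.47 over shared transcripts). TNFRSF19 had a mean of 0.33 CPM in hPSC, a few reads per library, so the size of its rise is uncertain too. Among the falls, ANGEL1 was at 61.8, 58.6 and 87.8 CPM in hPSC with no read in endoderm, at least 237-fold lower against a floor of 3 counts per library. U2AF1, a splicing factor, was likewise at least 242-fold lower; it has a near-identical copy in this genome build, so its counts are uncertain. HES1, a NOTCH target, had 1 read in endoderm against 10.51, 10.40 and 10.99 CPM in hPSC, a ratio of 339 (95% counting interval 60.6 to 13400). DOT1L, the H3K79 methyltransferase, fell by 9.21 ± 0.46 on the log2 scale, with 1 transcript in the endoderm table and 2 in the hPSC table and no test over shared ones. Intervals and floors cover counting error only.

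Genes found in 1 table only held 4.504% to 5.216% of endoderm chromatin counts and 4.13% to 4.40% of those of hPSC. Among genes with a symbol, the highest means in the endoderm table alone were those of 5_8S_rRNA (11608 CPM, a gene with many near-identical copies, so uncertain), FGFR3 (1633), APOA1 (1424), PCAT14 (887) and FAM20A (577). In the hPSC table alone they were MT-TP (710), MIR5047 (353, a short RNA that may share reads with its host), SOX2 (270), FGF2 (244) and BRD7 (232).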

How the data were processed

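The authors deposited whole-number counts and TPM per assembled transcript and library, 1 table for each cell type. RSEM, STAR and hg38 are named without versions in the submitters' processing notes, per the labels; other steps are not given in the sources used here. The counts may be rounded estimates. Rows were summed per Ensembl gene, and the endoderm and hPSC tables were joined on it. Transcripts of no Ensembl gene stayed out of the tests; they held 4.97% of endoderm and 1.23% of hPSC chromatin counts on average. One column that matches no sample (1 column in all) was not used.

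Fits used edgeR 4.0.16 in R 4.3.3 (quasi-likelihood F test, TMM scaling, low genes removed by filterByExpr at its minimum count, 10, Benjamini-Hochberg adjustment over all genes tested, threshold 0.05). The standard error is the log2 change divided by the square root of F. For genes with a few reads in a group it can fall below the counting error. CPM are scaled to a library's total. Alternatives used DESeq2 1.42.0, limma 3.58.1 on log2(TPM + 1), other scaling and filters, the replicate block, the libraries left out in turn, and shared transcripts. On data simulated for the chromatin comparison, 200 of 11468 genes were changed. There 58% of 2-fold and 99% of 4-fold changes were recovered, and 6.55% of calls were false. For the difference between fractions, with 200 of 11599 genes changed, 25% and 84% were recovered, and 5.22% of calls were false. Far more genes were called in the real data, so these rates may not carry over.

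The genes named are the 12 steepest rises and falls among called genes with a symbol, at least 10 CPM in the higher group and no overlap; from each list the 4 called members with the largest change and at least 1 CPM, plus its defining members; the 5 with the largest CPM difference each way; the 5 with the largest difference between fractions each way; and the 5 highest genes of each table alone. Further list members were named after their values were seen. The members and lists were chosen with earlier results of these data known. Some genes the rule names are not reported here.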

Additional observations from a re-analysis of the deposited data

Results flagged for a closer look

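The change on chromatin differed from the change in cytoplasm most, on the log2 scale by edgeR's quasi-likelihood test, for genes that were nearly absent in a group, where the fitted value depends on the prior count and is no bound. The difference was 6.42 for SLX1A, with mean levels of 31.2 CPM on hPSC chromatin, 0.80 on endoderm chromatin, 34.2 in hPSC cytoplasm and 0 in endoderm cytoplasm; without endoderm chromatin replicate 2, the only endoderm chromatin library with reads, it was 0.21. It was 6.03 for HAPSTR1, 5.80 for OVCH2, which stood at 13.8 CPM on endoderm chromatin and 0.32 in endoderm cytoplasm, 5.51 for ZNF135 and 5.36 for NPIPA7, a member of a multicopy family whose counts are uncertain. On the lower side it was -11.20 for U2AF1, at 0 on endoderm chromatin and 12.4 CPM in endoderm cytoplasm, and -7.58 for SNORD116-24. It was -6.28 for TATDN1, -3.71 for HEATR5A and -3.41 for RPL18AP3, a pseudogene that may share reads with its parent gene.

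Transcripts of no Ensembl gene, which entered no comparison, held 4.97% of endoderm chromatin counts on average (range 4.32% to 5.98%) and 1.23% of hPSC chromatin counts (1.09% to 1.37%). In endoderm 5 of 342 such transcripts held 88.0% of these counts.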

How the results depend on the processing

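The number of genes called on chromatin was 7300, and 6144 to 8357 with 1 library left out, the highest without hPSC replicate 3. It was 4393 with at least a 2-fold change, 4762 of 8752 over transcripts listed in both tables and 3241 of 5303 among genes with the same number of transcripts; the last 2 tested fewer genes. The share of calls that were higher was 49.9%, against 41.4% with total counts, 41.5% with upper-quartile factors and 36.8% with limma on TPM, whose median lay 0.27 lower. For the difference between fractions, 4304 calls became 2613 with at least 2-fold and 3542 to 5648 with 1 library left out, and 36.2% were higher against 27.1% with total counts and 49.2% with DESeq2. Against ectoderm the calls ranged from 5516 to 5720 with 1 library left out (6329 with all), and against mesoderm from 3386 to 4734 (4320 with all); with total counts 36.2% and 35.1% of calls were higher in place of 48.6% and 46.4%.

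Replicate numbers are not stated to pair the samples, and same-numbered chromatin libraries correlated in their deviations at 0.13, 0.03 and 0.20; with the replicate block 7229, 4041, 6119 and 3954 genes were called in the 4 comparisons. Of 1325 values of 93 named genes under the alternatives, 1310 kept direction and call, 11 lost the call and 4 turned: USP44 (0.53), HELLS (3.25) and SNHG14 (1.12) over shared transcripts, and MT-ATP8 (2.47, adjusted p = 0.469 by limma) on TPM. Outside that set, CD24, SREBF1, TRIM28 and ESRP1 turned over shared transcripts, and CLDN7, CYP51A1 and DNMT3A lost the call. The cause was not tested. Of the losses, 8 were for the SLX1A difference with 1 library left out, HES1 lost it on TPM, and NRP1 and RNF43 over shared transcripts. Genes near a few counts per library limit what the depth can show.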
